A study of Mus musculus with 16 samples.

Results

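The protein subunits of the mitochondrial respiratory chain and ATP synthase were followed in mouse spermatogonia as 2 sets that are transcribed from 2 genomes. The mitochondrial set held 12 genes of the mitochondrial chromosome, with symbols starting mt-Nd, mt-Co, mt-Cytb or mt-Atp. The nuclear set held 94 genes chosen by symbol: Nduf genes of complex I, Sdha to Sdhd of complex II, Uqcr genes of complex III, Cox4 to Cox8 genes of complex IV and Atp5 genes of complex V. Together they were 106 of the 16383 genes of the deposited table, and 3 symbols marked as pseudogenes were left out. All 106 passed the filter on low values, as did 12907 of the 16383 genes. mt-Nd3, the other protein gene of the 13 annotated on the mitochondrial chromosome, was not analysed here.

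The respiratory chain passes electrons from NADH and succinate through complexes I to IV to oxygen, and complex V uses the resulting proton gradient to make ATP. Complexes I, III, IV and V are built from subunits of both genomes, so transcripts made in the mitochondrion and transcripts made in the nucleus contribute to the same enzymes, while complex II is wholly nuclear. Mitochondrial genes are transcribed as long polycistronic RNAs from both strands, and undifferentiated spermatogonia are known for relying more on glycolysis than later germ cells do.

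Polyadenylated RNA of sorted spermatogonia was sequenced in 16 stranded libraries, 4 in each of 4 groups. All mice had received 10 mg/kg busulfan, an alkylating drug that depletes germ cells, and the cells were taken at day 10. The groups were KO with PD0325901, KO with vehicle, WT with PD0325901 and WT with vehicle, where PD0325901 is an inhibitor of the kinase MEK. It was given at 2.5 mg/kg, or vehicle with 10% DMSO was given, in daily injections for 7 days from day 3. Column names give Spry4ff for the WT mice and GCRT_Spry4KO for the KO mice, and sample titles name the latter Spry4 G-KO. Every column name also carries A_Undiff, in all groups alike. The labels do not spell out G-KO or A_Undiff. Spry4 encodes an antagonist that restrains growth factor signalling to ERK. Its loss and whatever else GCRT stands for cannot be told apart. Neither the sort markers nor the deleted stretch of Spry4 is given in the sources used here. The labels do not say that replicates were separate animals, so the spread behind each p-value is that of these libraries and may be technical.

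Spry4 was measured first, as a check of the labels. It had 11.97, 10.1, 7.28 and 14.7 FPKM in KO vehicle libraries, against 22.6, 23.8, 21.9 and 19.9 FPKM in WT vehicle libraries, and these did not overlap. In the PD0325901 groups it had 12.96, 8.23, 10.97 and 19.3 FPKM in KO libraries and 15.9, 19.6, 27.4 and 23.0 FPKM in WT libraries, which overlapped. The log2 difference, KO minus WT, was -1.01 with vehicle (2-sided exact permutation p = 0.0286, the smallest that 4 against 4 libraries allow) and -0.75 with PD0325901 (exact permutation p = 0.0571). Whether these reads lie inside the deleted part was not tested. All 10 listed markers of undifferentiated spermatogonia were present, with a summed 433 to 677 FPKM per library. The 6 contractile transcripts Acta2, Myh11, Tagln, Des, Cnn1 and Myl9, which mark smooth muscle and peritubular myoid cells, summed to between 1104 and 11441 FPKM. The 6 spermatid transcripts Prm1, Prm2, Tnp1, Tnp2, Odf1 and Akap4 summed to 2777 FPKM in KO vehicle replicate 3 and to at most 129.6 FPKM in the other libraries. In bulk libraries, fewer cells of a type and less RNA per cell cannot be told apart. The divisors that scale reads to FPKM, recovered from steps in the FPKM values, ran between 23356658 and 36609009 per library. They are not read totals: in WT PD0325901 replicate 3 the reads recovered in matched genes, 36302521, exceeded the divisor of 32253983.

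In deposited FPKM, the mitochondrial transcripts outweighed the nuclear ones in every library. Their 12 FPKM values summed to between 11612 and 28347 per library, and the 94 nuclear values to between 3259 and 5146, so the ratio of the sums ran between 2.44 and 7.63. As a share of all FPKM, the mitochondrial genes took 7.97, 8.53, 5.29 and 5.03% in KO libraries with PD0325901, 8.67, 7.85, 12.3 and 5.24% in KO libraries with vehicle, 8.21, 8.77, 7.30 and 7.24% in WT libraries with PD0325901, and 7.30, 8.89, 7.45 and 7.26% in WT libraries with vehicle. The highest and the 3 lowest shares were all KO libraries, and the groups overlapped. The nuclear genes took 1.64, 1.70, 1.88 and 2.06% in KO libraries with PD0325901, 1.62, 1.599, 1.61 and 1.85% in KO libraries with vehicle, 1.58, 1.65, 1.84 and 1.83% in WT libraries with PD0325901, and 1.58, 1.70, 1.92 and 1.82% in WT libraries with vehicle. Group by group the nuclear share overlapped as well, and its highest over lowest library was 1.30, against 2.44 for the mitochondrial share.

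**Figure D1:**
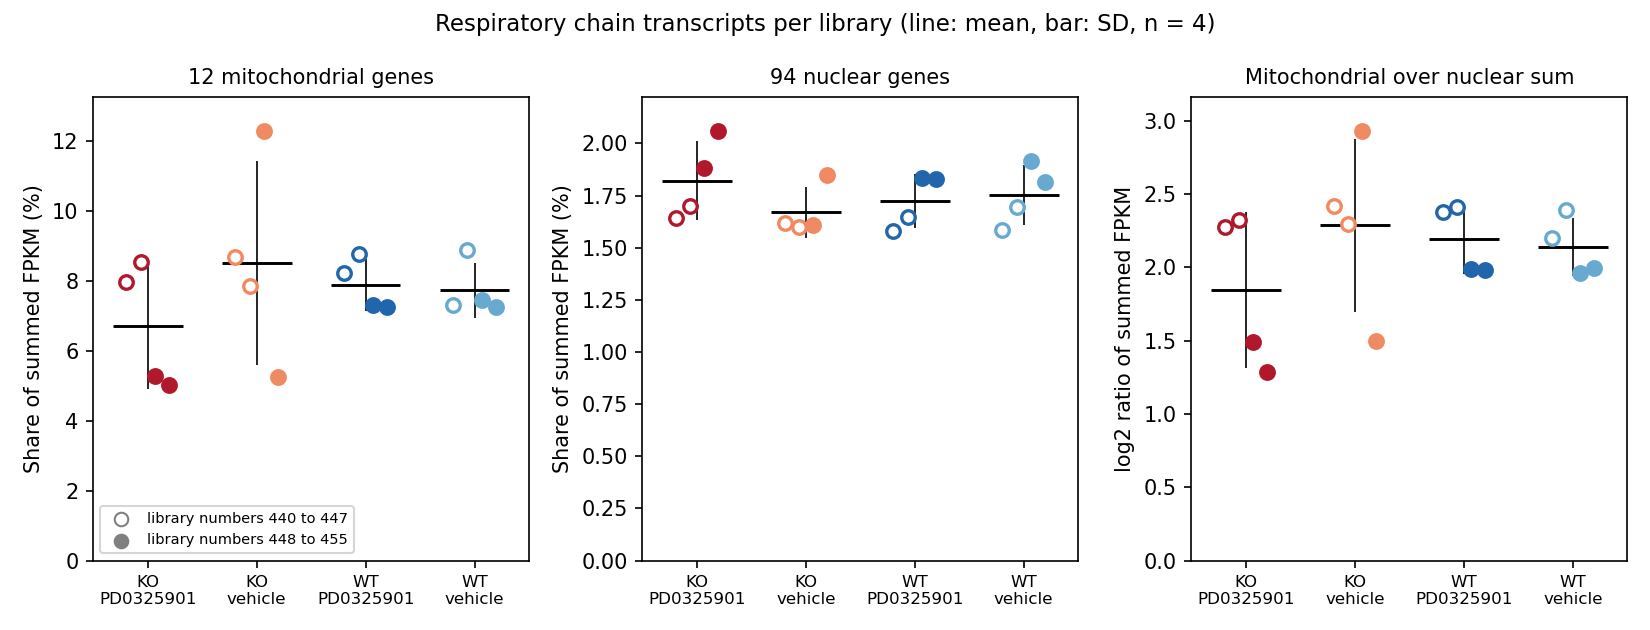
Each point is 1 library, in columns for the 4 groups. The left and middle panels give the share of summed FPKM in percent for the 12 mitochondrial and 94 nuclear genes, and the right panel the log2 ratio of the sums. Open points have library numbers 440 to 447 and filled points 448 to 455; lines are means and bars SD of 4 libraries. The mitochondrial shares spread between 5.03 and 12.3%, with both extremes in KO libraries.

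Both shares covered similar ranges in KO and WT libraries with lower library numbers, and wider ranges in KO than in WT libraries with higher ones. Column names carry a number between 440 and 455, and replicates 1 and 2 of each group have the lower 8 numbers and replicates 3 and 4 the higher 8; what the numbers stand for is not given. In the lower numbers the mitochondrial share was 7.85 to 8.67% in 4 KO libraries and 7.30 to 8.89% in 4 WT libraries. In the higher numbers it was 5.03 to 12.3% in 4 KO libraries (median 5.26%) and 7.24 to 7.45% in 4 WT libraries (median 7.28%). Thus 3 of the 4 KO libraries with higher numbers lay below all 12 other libraries, and the other 1, KO vehicle replicate 3, lay above all. That library is also the one with the high spermatid transcripts, and its part in the group means was not tested beyond leaving it out. The nuclear share was 1.599 to 1.70% in KO and 1.58 to 1.70% in WT libraries with lower numbers, and 1.61 to 2.06% in KO and 1.82 to 1.92% in WT libraries with higher numbers.

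Within the mitochondrial set, 7 genes were abundant and 5 were deposited at low values. mt-Co1 (chrM:5328-6872, plus strand, GRCm38), the catalytic subunit of complex IV, averaged 6848 FPKM and was the highest of all genes in 16 of 16 libraries. mt-Cytb, the cytochrome b of complex III, averaged 3773 FPKM, and mt-Nd1, a membrane subunit of complex I, averaged 3029 FPKM. That order of the 3 genes held in 15 of 16 libraries. The other membrane subunits of complex I followed: mt-Nd2 averaged 1581, mt-Nd4 1273 and mt-Nd5 923 FPKM. mt-Nd6, the only member on the minus strand, averaged 203 FPKM and was the lowest of these 7 in 16 of 16 libraries. mt-Co1 alone made up 35.8 to 41.0% of the mitochondrial sum.

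The remaining 5 mitochondrial genes lay between 0 and 6.25 FPKM in every library. mt-Co2 and mt-Co3, core subunits of complex IV, averaged 3.32 and 2.62 FPKM over the 16 libraries. mt-Atp8 and mt-Atp6, membrane subunits of complex V whose reading frames overlap, averaged 2.16 and 1.37 FPKM, and mt-Nd4l of complex I averaged 0.783 FPKM. All 5 together rested on 38 reads in KO PD0325901 replicate 3 and on 427 reads in KO vehicle replicate 3, the fewest and the most of any library. They lie in 1 stretch of the mitochondrial chromosome from mt-Co2 to mt-Nd4l, between the abundant mt-Co1 and mt-Nd4.

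That stretch has an annotated copy in the nuclear genome, and the copies are shown here because they bear on what a low value means. Genes annotated on the minus strand of chr1:24611535-24616197 (GRCm38) hold 7 copies in the same order as their mitochondrial counterparts, with 7 differing bases in 4149 aligned bases. Of the 50-base windows of mt-Co2, 100% also occur in a transcript of another annotated gene, and the share was 99.9% for mt-Co3, 99.5% for mt-Atp6 and 98.8% for mt-Nd4l. It was 62.2% for mt-Nd4, 51.1% for mt-Co1, 8.19% for mt-Nd2, 7.61% for mt-Nd5 and 0% for mt-Cytb, mt-Nd1 and mt-Nd6. mt-Atp8 had 0% as well, since no copy of it is annotated; its 204 bases lie mostly between mt-Co2 and mt-Atp6, which are 230 bases apart on the mitochondrial chromosome and 233 bases apart as copies. The start of the annotated copy Gm29216 differs from mt-Co1 by T1056A, C1057T, A1059G, A1060G, C1062A and A1066T, with the mitochondrial base first and positions counted from 1 at the 5′ end of mt-Co1. The pair is shown over chrM:6381-6440 and chr1:24616138-24616197, with the differing bases in capitals:
mt-Co1: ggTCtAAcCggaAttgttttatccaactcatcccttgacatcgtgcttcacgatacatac
Gm29216: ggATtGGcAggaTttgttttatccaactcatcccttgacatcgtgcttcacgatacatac
The first 60 bases of mt-Atp6 (chrM:7927-7986) and of its copy Gm10925 (chr1:24614592-24614651) show no difference, and neither do the 678 aligned bases in full:
mt-Atp6: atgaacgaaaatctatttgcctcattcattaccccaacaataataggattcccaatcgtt
Gm10925: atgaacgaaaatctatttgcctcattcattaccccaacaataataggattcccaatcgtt
Of the 7 copies, Gm10222, the copy of mt-Nd4l, was the 1 in the deposited table, with 0 to 3.27 FPKM. How the authors counted reads that match more than 1 place is not given in the sources used here, and its part in the low values was not tested. The levels of these 5 genes are therefore given as deposited and not read as RNA levels. Medians and counts over the mitochondrial set include them, so they mix these values with those of the abundant genes. In the nuclear set, a median 0.861% of windows was shared, over 88 genes with annotated transcripts.

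**Figure D2:**
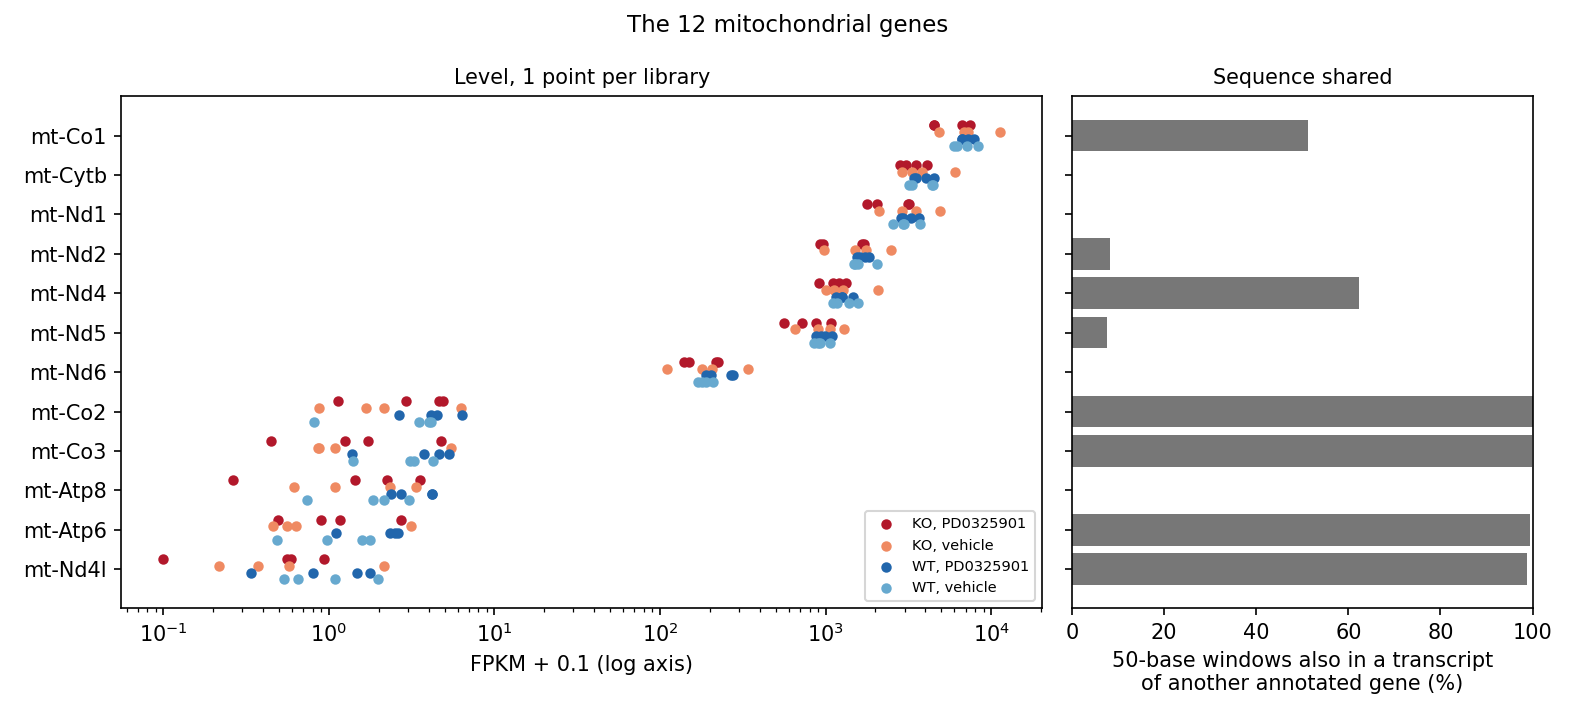
The 12 mitochondrial genes in order of mean level. The left panel gives FPKM + 0.1 on a log axis with 1 point per library, coloured by group, and the right panel the percentage of each gene's 50-base windows that also occur in a transcript of another annotated gene. The 7 upper genes lie between 110.3 and 11372 FPKM and the 5 lower ones between 0 and 6.25 FPKM, and 4 of those 5 share at least 98.8% of their windows.

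The nuclear genes lay in a narrower band. Their median was 35.7 FPKM, against 7.88 FPKM for all genes tested, and the 8 Ndufaf genes, which encode assembly factors of complex I and no subunits, had a median of 7.13 FPKM. In complex I, Ndufv1, which binds the flavin that accepts electrons from NADH, was the highest at 74.8 FPKM and Ndufb2, an accessory subunit, the lowest at 1.46 FPKM. In complex II, Sdha, the flavoprotein, had 63.9 FPKM and Sdhb, the iron-sulfur subunit, 32.4 FPKM. In complex III, Uqcrh, the hinge protein, had 87.9 FPKM and Uqcrq 20.3 FPKM. In complex IV, Cox8a had 208 FPKM and Cox7a1, the heart and muscle isoform, 3.76 FPKM. In complex V, Atp5f1b, the catalytic beta subunit, had 193 FPKM and Atp5mg, a membrane subunit, 2.36 FPKM. FPKM divides by a gene's length: the merged exons of Ndufb2 span 5628 bases and those of Atp5mg 6443 bases in the annotation used here, and over 88 genes level and exon length had a Spearman rho of -0.31.

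Among the isoform pairs of Cox4i, Cox6b, Cox7b and Cox8, the widely expressed form had the higher mean. Cox4i1 averaged 190.1 FPKM and Cox4i2, an isoform known from lung and hypoxia, 29.2 FPKM. Cox6b1 averaged 149 FPKM and the testis isoform Cox6b2 6.45 FPKM. Cox7b averaged 36.7 FPKM and Cox7b2 29.9 FPKM, and their ranges over libraries overlapped. Cox8a averaged 208 FPKM and Cox8c, another testis form, 11.05 FPKM. Cox7a2 averaged 73.1, Cox7a2l, a supercomplex factor, 41.2 and Cox7a1 3.76 FPKM. Cox6a1 averaged 173 and Cox6c 28.5 FPKM, and Cox6a2 and Cox8b were not analysed here. The 3 genes for the identical c subunit of the ATP synthase rotor differed in level, with 58.0 FPKM for Atp5mc3, 10.45 for Atp5mc2 and 9.63 for Atp5mc1. Ndufa4, a complex IV subunit, averaged 35.1 FPKM and its paralog Ndufa4l2, known as a hypoxia target, 42.1 FPKM with a range of 14.1 to 74.2 FPKM. Ndufab1, the acyl carrier protein, averaged 3.05 FPKM.

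No member of either set passed the test between genotypes. With PD0325901, the comparison of KO with WT gave 0 of 12907 genes with an adjusted p under 0.05 (0.0%; limma with Benjamini-Hochberg adjustment), and 605 genes with an unadjusted p under 0.05. All 12 mitochondrial genes had lower means in KO libraries, with a median log2 difference of -0.39, whereas the nuclear median was 0.05 and that of all genes -0.01. The 12 genes share libraries and transcription units, so they are not 12 replicates. Within the lower library numbers the mitochondrial median was 0.07 and within the higher ones -0.89. The difference thus stood in the libraries with higher numbers and not in the others.

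mt-Co1 had 6649.7, 7416, 4493 and 4502 FPKM in KO libraries with PD0325901, against 6705, 6682, 7924 and 7231 FPKM in WT libraries with PD0325901. KO replicates 3 and 4 were the lowest and KO replicate 2 lay inside the WT range (log2 difference -0.34, SE 0.31, limma adjusted p = 0.9998). mt-Nd2 had 1660.4, 1695, 924 and 967 FPKM in KO libraries and 1552, 1732, 1831 and 1613 FPKM in WT libraries of that treatment, again with replicates 3 and 4 low (-0.41, SE 0.27, limma adjusted p = 0.9998). mt-Atp8 had 2.15, 3.46, 0.165 and 1.34 FPKM in KO and 2.63, 4.08, 4.10 and 2.29 FPKM in WT libraries, the largest mitochondrial difference in size, and the groups overlapped (-0.96, SE 0.52, limma adjusted p = 0.988). mt-Co3 followed at -0.95 (SE 0.59), uncalled. The nuclear members with the smallest p were Ndufaf4, a complex I assembly factor, at -0.24, Ndufs5 at -0.74 and Cox5b, a complex IV subunit, at 0.19, all uncalled. No member separated the groups, where 2.28% of all genes did.

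With vehicle, KO and WT differed in 0 of 12907 genes (0.0%; 251 with an unadjusted p under 0.05). The mitochondrial median was -0.01, with 6 of 12 genes higher in KO. The higher ones were all abundant genes, whereas mt-Nd2 (-0.04) and every low gene were lower, down to -0.74 for mt-Co3. The nuclear median was -0.10, with 18 of 94 genes higher in KO, against -0.01 and 47.2% for all genes. By complex, the nuclear medians were -0.12 in complex I, -0.09 in complex II, -0.15 in complex III, -0.08 in complex IV and -0.18 in complex V. The contractile score, the mean log2(FPKM + 0.5) of the 6 contractile transcripts, averaged 8.03 in KO and 8.69 in WT libraries of this comparison. With that score as a term in the fit the nuclear median was 0.01, with 54 of 94 genes higher. The part of the score in this median was not tested. Without KO vehicle replicate 3 the mitochondrial median was -0.23, with 0 of 12 genes higher.

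Ndufs6b (chr7:81161397-81161744, minus strand, GRCm38), a paralog of the complex I gene Ndufs6, was the 1 member whose libraries did not overlap here, in a comparison where 1.46% of genes did not. It had 0.101, 1.86, 0.317 and 0.400 FPKM in KO vehicle libraries, against 2.35, 4.43, 6.99 and 3.56 FPKM in WT vehicle libraries. In the KO vehicle libraries, 1 FPKM stood for 24.7 to 36.3 reads per kilobase. Ndufs6b is shorter than 1 kilobase, so its values there rested on few reads. Every KO vehicle library lay below every WT vehicle library, but the call was not reached (log2 difference -2.17, SE 0.69, limma adjusted p = 0.9998). In the PD0325901 groups Ndufs6b had 1.68, 4.05, 5.33 and 9.26 FPKM in KO libraries and 3.60, 0, 3.47 and 5.59 FPKM in WT libraries. Of its 50-base windows 25.4% occur in Ndufs6 as well, so reads could be split between the pair. The other uncalled members with the smallest p were Uqcrb of complex III at -0.24, Atp5mk of complex V at -0.24, Ndufc2 of complex I at -0.17 and Cox6b2 at 0.67.

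PD0325901 against vehicle gave 0 of 12907 called genes in KO libraries (0.0%; 382 with an unadjusted p under 0.05) and 0 in WT libraries (0.0%; 115 with an unadjusted p under 0.05). In KO libraries the mitochondrial median was -0.22 and the nuclear median 0.11, with 77 of 94 nuclear genes higher with PD0325901. In WT libraries these medians were 0.07 and -0.02, with 36 of 94 nuclear genes higher. In KO libraries all abundant mitochondrial genes were lower with PD0325901. Of the low ones, mt-Co2 (0.40), mt-Atp6 (0.23) and mt-Co3 (0.04) were higher there, and mt-Nd4l (-0.22) and mt-Atp8 (-0.07) were lower. The contractile score averaged 8.74 with PD0325901 and 8.03 with vehicle in KO libraries, and 8.10 with PD0325901 and 8.69 with vehicle in WT libraries. With that score as a term the nuclear medians were -0.01 in KO and 0.08 in WT libraries. The part of the score in these medians was not tested. Without KO vehicle replicate 3 the mitochondrial median in KO libraries was 0.08, with 7 of 12 genes higher, so its sign rested on that library.

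Cox5b had 37.7, 45.4, 49.97 and 61.8 FPKM in KO libraries with PD0325901, against 36.8, 37.0, 39.0 and 42.6 FPKM in KO libraries with vehicle. Replicates 2, 3 and 4 with PD0325901 lay above all 4 vehicle libraries and replicate 1 did not (log2 difference 0.30, SE 0.12, limma adjusted p = 0.968). Atp5pb, a subunit of the peripheral stalk of ATP synthase, had 20.8, 21.0, 20.5 and 23.8 FPKM with PD0325901 and 20.4, 19.9, 19.8 and 20.1 FPKM with vehicle in KO libraries, which do not overlap; the share of all genes that do not was 1.7%. Ndufs6b, whose values are given above, had the smallest p of the members in KO libraries (2.27, SE 0.69, limma adjusted p = 0.968), and Atp5po, Atp5me and Ndufb9 followed at 0.29, 0.36 and 0.28. In WT libraries the smallest p values belonged to mt-Atp6 (0.69), mt-Atp8 (0.75), Ndufb4 (0.14), Ndufs5 (0.60) and Ndufaf7 (0.08), all uncalled. No member separated PD0325901 from vehicle in WT libraries, where 0.659% of genes did.

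**Figure D3:**
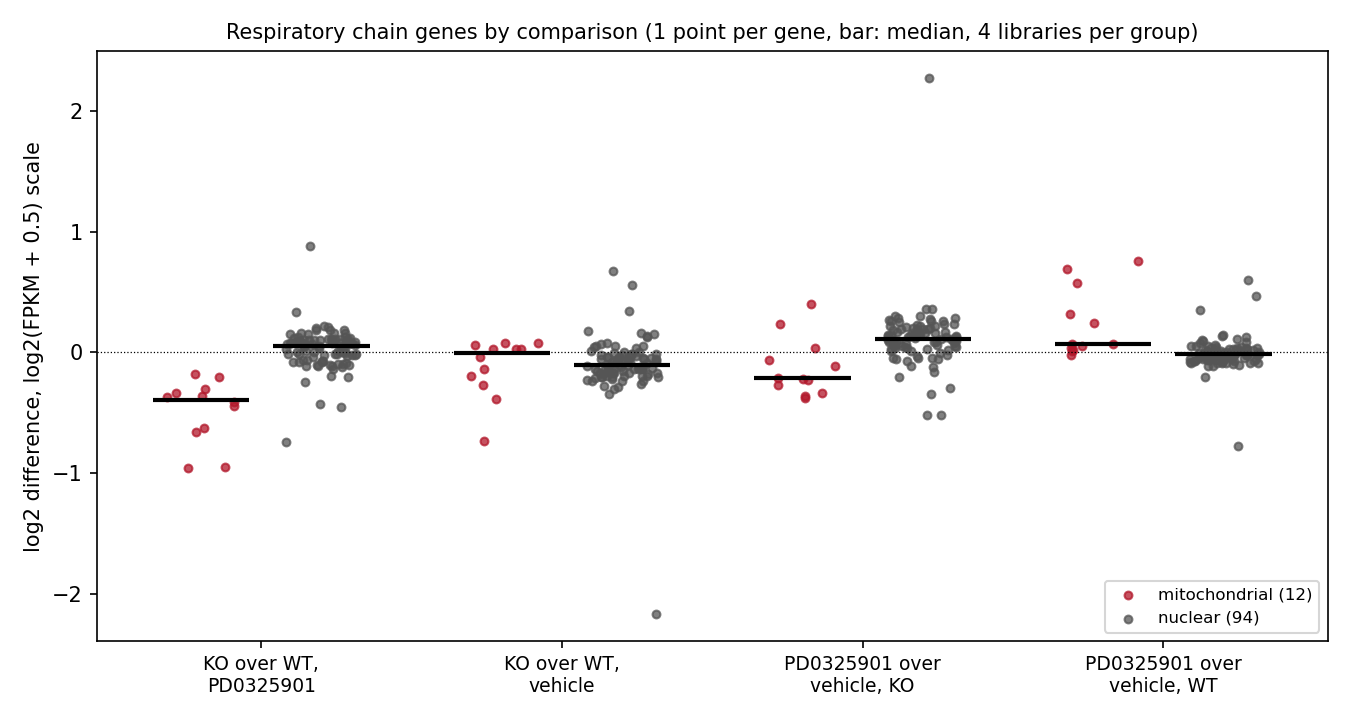
Each point is the log2 difference of 1 gene on the log2(FPKM + 0.5) scale in 1 of 4 comparisons, with the 12 mitochondrial genes in red, the 94 nuclear genes in grey and bars at the medians. The mitochondrial median lies at -0.39 for KO over WT with PD0325901 and at -0.22 for PD0325901 over vehicle in KO, and no gene passed the test in any of the 4. The comparisons share groups, so their values are not independent.

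No member passed the test for a different effect of PD0325901 in the 2 genotypes. The interaction, the PD0325901 effect in KO minus that in WT, was called in 0 of 12907 genes (0.0%; 1.71% of them with an unadjusted p under 0.05). Its median was -0.36 over mitochondrial genes, 0.13 over nuclear genes and -0.01 over all genes. Within the lower library numbers the mitochondrial median was 0.20, within the higher ones -0.89, and without KO vehicle replicate 3 it was -0.08. Ndufs6b had the smallest p of the members (3.05, SE 0.98, limma adjusted p = 0.9993), followed by Cox5b (0.36), Atp5me (0.44), Atp5po (0.30) and Ndufs5 (-0.89), all uncalled.

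Taking both treatments together, KO against WT gave 0 called genes (0.0%; 561 with an unadjusted p under 0.05), a mitochondrial median of -0.19 with 0 of 12 genes higher, and a nuclear median of -0.03. mt-Co3 had the largest difference of the mitochondrial genes (-0.84, SE 0.41, limma adjusted p = 0.998), and mt-Cytb stood at -0.09 and mt-Co1 at -0.13. Within the lower library numbers the mitochondrial median was -0.02 with 5 of 12 genes higher, and within the higher ones -0.41 with 0 of 12 higher. Among nuclear genes the smallest p belonged to Atp5mk (-0.22), Ndufaf4 (-0.17), Uqcrb (-0.17) and Atp5mg (-0.17). PD0325901 against vehicle over both genotypes gave 0 called genes (0.0%, with 238 at an unadjusted p under 0.05). Its medians were -0.10 for the mitochondrial and 0.05 for the nuclear genes. Among the mitochondrial genes, mt-Nd6 and the low ones except mt-Nd4l were higher with PD0325901. The members with the smallest p were Atp5mc1 (0.14), Ndufs6b (0.75), Ndufs4 (-0.13), Cox5b (0.13) and Ndufb9 (0.17), all uncalled.

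Within groups, the mitochondrial genes mostly varied with each other, and so did most nuclear genes. After group means were removed, pairs of the 7 abundant mitochondrial genes had a median Pearson r of 0.86 over 16 libraries, with a range of 0.49 to 0.98. Pairs of nuclear genes had a median of 0.73, with a range of -0.89 to 0.996. An abundant mitochondrial gene with a nuclear gene had a median of -0.08, and single pairs ran both ways, between -0.67 and 0.71. The pairs share libraries, depth and scaling, so these values are descriptions. The 5 low mitochondrial genes had a median r of 0.81 among themselves and of 0.72 with the abundant ones.

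Most nuclear genes, 67 of 94, rose with the contractile transcripts, and no mitochondrial gene passed that test. A slope of log2(FPKM + 0.5) on the contractile score was fitted for every gene over 16 libraries with group means in the model, and 53.6% of the 12907 genes had an adjusted p under 0.05, 31.9% upward and 21.6% downward. Of the 94 nuclear members 67 rose, 3 fell and 24 were not called, with a median slope of 0.17 against 0.01 for all genes. Of the 12 mitochondrial members 0 were called, none had an unadjusted p under 0.05, and the median was -0.06. Total FPKM differed between libraries too: it was 206108 in WT PD0325901 replicate 1 (score 6.90) and 276968 in WT PD0325901 replicate 3 (score 9.86). These were the lowest and highest totals, and the deposited values were fitted without rescaling for them. When each library was scaled to the same FPKM total outside mitochondrial genes, the median of all genes shifted to -0.11, 2474 genes were called upward and 6672 downward where the deposited values gave 4122 upward and 2791 downward, and 31 nuclear members were called upward and 12 downward, with 3 mitochondrial members called downward. Over all genes, these calls were 19.2% upward and 51.7% downward. With that scaling 34 of the 70 called members kept their call, 28 lost it with the same sign, and 8 had an uncalled slope just below 0 (Atp5mk, Cox4i1, Cox6b1, Ndufa7, Ndufa9, Ndufs8, Ndufv1 and Uqcrb). Relative to the median of all genes the nuclear median was then 0.17, and 0.16 before that scaling. Germ cell markers were called downward with the score or were not called. Of the 10 markers of undifferentiated spermatogonia 0 rose and 6 fell (median -0.12), among them Ddx4, a germ cell RNA helicase, at -0.26 (limma adjusted p = 0.00056), and of 7 meiotic markers 0 rose and 7 fell (median -0.30). The part of the cell types present in the nuclear slopes was not tested.

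The slope also depended on the library numbers, which moved with the score. The score averaged 8.22 in KO and 7.48 in WT libraries with lower numbers, and 8.55 in KO and 9.31 in WT libraries with higher ones. With the number set as a term, 51 nuclear genes were called upward and 4 downward, where 28.6% of all genes were called upward and 19.2% downward. Fitted within the lower numbers alone, 1 nuclear gene was called upward and 0 downward, against 1.59% and 0.0155% of all genes, with a nuclear median of 0.11 and a mitochondrial median of 0.22. Within the higher numbers, 27 were called upward and 3 downward, against 20.1% and 7.44% of all genes, with a nuclear median of 0.14 and a mitochondrial median of -0.35 with 1 mitochondrial gene called downward. The nuclear median was thus positive in both, and the mitochondrial median had opposite signs; that difference was not tested.

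**Figure D4:**
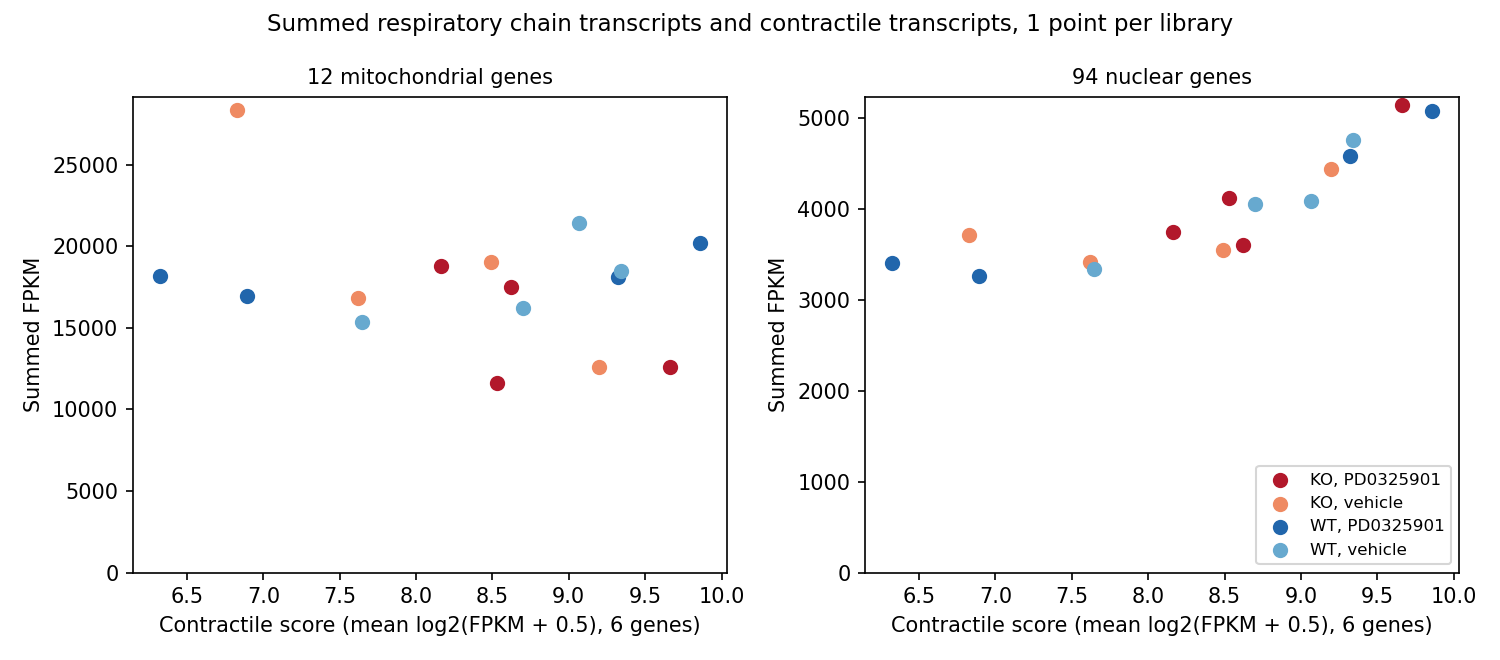
Each point is 1 library, coloured by group. The horizontal axis is the contractile score, the mean log2(FPKM + 0.5) of 6 contractile transcripts, and the vertical axis the summed FPKM of the 12 mitochondrial genes (left) or the 94 nuclear genes (right). The nuclear sums run between 3259 and 5146 FPKM and are highest in libraries with high scores, while the mitochondrial point at 28347 FPKM is KO vehicle replicate 3, which has a score of 6.83. Total FPKM, which is not plotted, ran between 206108 (score 6.90) and 276968 (score 9.86), and the nuclear share of it between 1.58 and 2.06%.

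In complex I, 30 of 38 nuclear subunit genes rose with the score and 0 fell, where 31.9% of all genes rose and 21.6% fell. When scaled without mitochondrial genes, 12 were called upward and 4 downward, where 19.2% and 51.7% of all genes were. The counts per complex below stand beside the same shares. Ndufa1, an accessory subunit encoded on the X chromosome, had a slope of 0.42 (SE 0.06, limma adjusted p = 2.9e-05), and Ndufb7 one of 0.37. Ndufs6b had the largest value at 0.50 but was not called (limma adjusted p = 0.0617). Of 8 assembly factors, Ndufaf8 rose, Ndufaf5 (-0.08) and Ndufaf7 (-0.05) fell, and 5 were not called. With the other scaling 0 were called upward and 6 downward, and with the library number as a term 0 were called. So few genes are not read as a pattern of their own.

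All 4 complex II genes and all 8 nuclear complex III genes rose in the deposited values; scaled without mitochondrial genes, 1 of the 4 and 6 of the 8 were called upward, and 0 downward. Sdhc, a membrane anchor of complex II, had 41.2, 36.4, 46.5 and 64.4 FPKM in KO libraries with PD0325901, 41.1, 31.6, 34.6 and 53.4 FPKM in KO libraries with vehicle, 31.1, 28.1, 66.0 and 58.5 FPKM in WT libraries with PD0325901, and 33.5, 48.2, 60.2 and 44.6 FPKM in WT libraries with vehicle. Its slope was 0.36 (SE 0.03, limma adjusted p = 5.0e-07), against 0.12 for Sdha, 0.18 for Sdhb and 0.12 for Sdhd. In complex III the slopes ran between 0.11 for Uqcrb and 0.30 for Uqcrq, and Uqcrfs1, the Rieske iron-sulfur protein, had 0.30.

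In complex IV, 9 of 18 nuclear genes rose, 1 fell and 8 were not called. With the other scaling 4 were called upward and 2 downward, where 19.2% and 51.7% of all genes were. Cox7b had 32.7, 34.5, 35.2 and 51.7 FPKM in KO libraries with PD0325901, 31.3, 28.4, 24.7 and 39.9 FPKM in KO libraries with vehicle, 27.0, 23.1, 55.5 and 47.8 FPKM in WT libraries with PD0325901, and 27.1, 43.7, 49.8 and 35.0 FPKM in WT libraries with vehicle. Its slope was 0.35 (SE 0.03, limma adjusted p = 1.5e-07), whereas its paralog Cox7b2 fell, with a slope of -0.17 (SE 0.06, limma adjusted p = 0.0303). Cox6b2 and Cox8c had the other most negative slopes, -0.20 and -0.17, and were not called in the deposited values. The genes called downward with the other scaling were Cox6b2 and Cox7b2. With the library number as a term 6 complex IV genes were called upward and 3 downward (Cox6b2, Cox7b2 and Cox8c), where 28.6% and 19.2% of all genes were. In the deposited values mt-Nd1 and mt-Nd2 stood at -0.12 and -0.10. In complex V, 15 of 18 genes rose and 0 fell, and with the other scaling 8 were called upward and 0 downward. Atp5mc3 had the largest slope there, 0.32, Atp5f1a, the alpha subunit, had 0.27, and Atp5mg, Atp5mj and Atp5mc1 were not called.

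**Figure D5:**
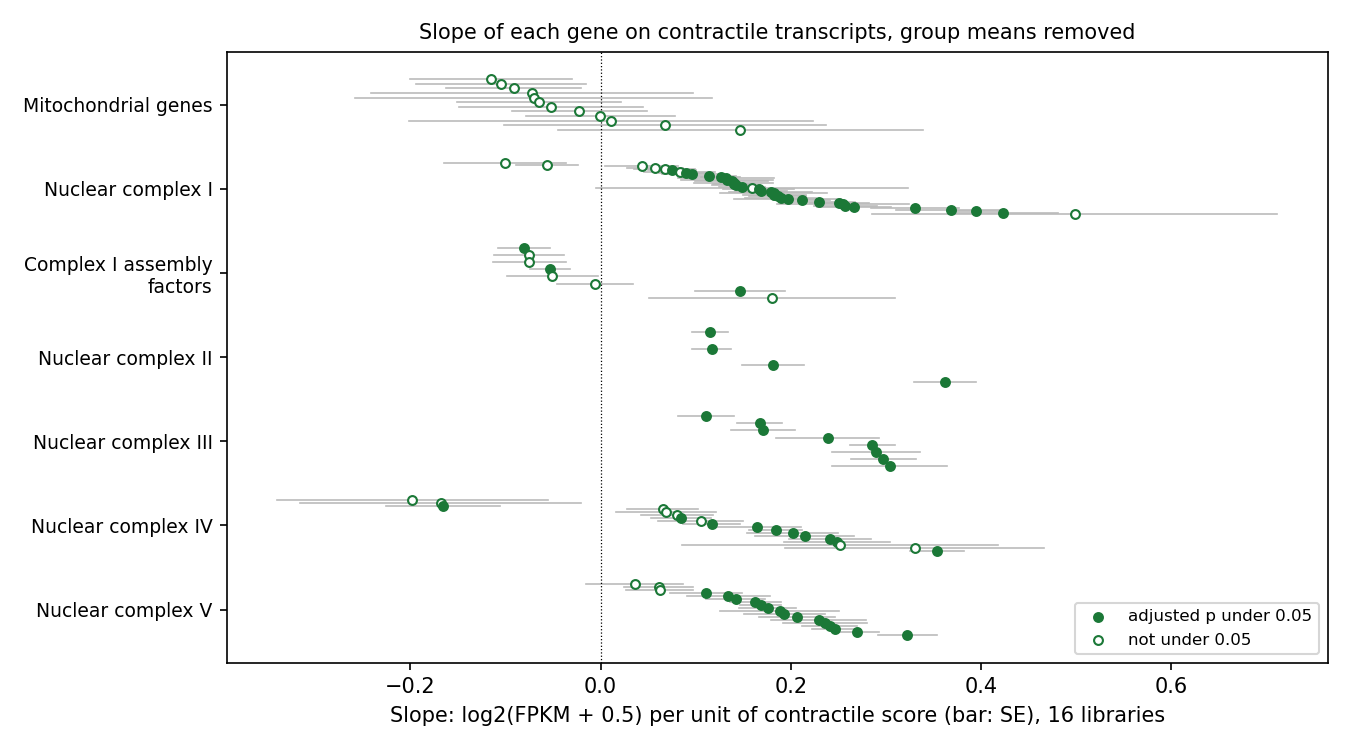
Each point is the slope of 1 gene, in log2(FPKM + 0.5) per unit of contractile score over 16 libraries with group means removed, and bars are SE. Filled points have an adjusted p under 0.05. The 12 mitochondrial genes are all open, while 67 nuclear genes are filled to the right of 0 and 3 to the left of it, 2 of them assembly factors; scaled without mitochondrial genes, 8 of the 67 lie just left of 0 and are not called.

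Among other mitochondrial gene lists, counts are given for the deposited values only, beside 31.9% of all genes called upward and 21.6% downward. Scaled without mitochondrial genes, 19.2% and 51.7% of all genes were called upward and downward, and counts of these lists under that scaling are not given. Of 14 tested genes of the tricarboxylic acid cycle 13 rose and 0 fell (median 0.21), led by Idh2, the mitochondrial NADP-dependent isocitrate dehydrogenase, at 0.80. Of 6 antioxidant and uncoupling genes 4 rose, including Ucp2 at 0.36 and Sod2, the manganese superoxide dismutase, at 0.19. The ribosomal protein list had fewer called upward than all genes in proportion, and the assembly factor list was near that share. Of 78 mitochondrial ribosomal protein genes 17 rose and 6 fell (median 0.03), and of 32 further assembly factors 9 rose and 3 fell (median 0.04). The genes for mitochondrial DNA transcription and replication had 1 that rose and 6 that fell among 17 (median -0.06), with Tfam, which packages and activates the mitochondrial chromosome, at -0.06 and uncalled. Of 19 genes for mitochondrial RNA processing 3 rose and 5 fell (median 0.00), and of 11 regulators 5 rose and 0 fell (median 0.05). The somatic cytochrome c gene Cycs rose (0.22) and the testis form Cyct fell (-0.18).

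Cox6b2 and the summed mitochondrial transcripts were highest in the library with the most spermatid transcripts. A slope on the spermatid score, the mean log2(FPKM + 0.5) of the 6 spermatid transcripts, was called for 1.35% of all genes, for 1 nuclear gene and for 0 mitochondrial genes. The nuclear gene was Cox6b2, with 6.83, 4.83, 5.36 and 4.41 FPKM in KO libraries with PD0325901, 5.81, 3.94, 27.6 and 5.53 FPKM in KO libraries with vehicle, 4.19, 5.67, 4.98 and 4.73 FPKM in WT libraries with PD0325901, and 4.94, 3.32, 4.62 and 6.42 FPKM in WT libraries with vehicle. A single library, KO vehicle replicate 3, was high, and the slope of 0.26 (limma adjusted p = 0.0015) became 0.13 (limma adjusted p = 0.843) without it. All 12 mitochondrial slopes were positive, with a median of 0.11 and 7 unadjusted p values under 0.05, and the median without that library was 0.06 with 0 such values. The nuclear median was -0.01.

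The promoters of the nuclear genes were searched because most of these genes rose together with the contractile score. The letters GCGCATGC, the core bound by NRF1, a regulator of nuclear respiratory genes, were found on either strand in 12 of 74 nuclear members with a RefSeq window of 250 bases before to 50 after the start (GRCm38.p6), 16.2%, against 3.05% of 27025 genes and 5.51% of the genes measured here. The ETS core CCGGAAG was in 24.3% of the members, against 9.93% of all genes and 17.6% of those measured. The YY1 core AAGATGGC was in 14.9%, against 3.19% of all genes and 4.66% of those measured. The members with the NRF1 letters had a median contractile slope of 0.17 and those without it 0.16. A match is a run of letters, not a binding site. Among the members with these letters, Uqcr11 and Atp5me had the largest slopes, and Ndufaf4 (-0.01) and Ndufaf5 (-0.08) had negative ones. Uqcr11, a small complex III subunit with a slope of 0.24, has 1 match, and Atp5me, a membrane subunit of complex V with a slope of 0.23, has 2 that overlap. Their windows are chr10:80406772-80407071 and chr5:108434350-108434649, both on the minus strand, with the NRF1 letters in capitals:
Uqcr11: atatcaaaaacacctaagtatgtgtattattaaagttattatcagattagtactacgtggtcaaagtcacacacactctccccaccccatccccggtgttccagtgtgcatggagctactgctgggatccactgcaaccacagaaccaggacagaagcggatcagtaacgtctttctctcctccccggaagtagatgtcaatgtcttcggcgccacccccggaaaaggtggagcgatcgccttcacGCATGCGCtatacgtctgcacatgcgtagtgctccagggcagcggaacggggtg
Atp5me: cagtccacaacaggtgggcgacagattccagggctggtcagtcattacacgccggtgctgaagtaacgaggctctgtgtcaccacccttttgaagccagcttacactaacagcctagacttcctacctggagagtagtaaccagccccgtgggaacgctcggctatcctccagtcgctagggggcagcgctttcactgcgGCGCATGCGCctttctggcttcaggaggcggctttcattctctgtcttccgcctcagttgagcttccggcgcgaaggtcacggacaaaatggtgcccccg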

How the data were processed

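FPKM values (fragments per kilobase, scaled by a divisor per library) were used as the authors deposited them, 1 column for each of 16 libraries. The submitters' processing notes list FastQC, STAR 2.7.10a, edgeR 4.0.14 and the builds mm10 and GRCm39, with no role for each; the read counter, the gene lengths and the treatment of reads with several matches are not stated there or in the labels. Columns were matched to samples by the column names in the labels.

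Genes with at least 1 FPKM in at least 4 libraries were tested (12907, with 3476 left out) on log2(FPKM + 0.5), which understates changes of low genes, with limma 3.58.1 (R 4.3.3), trended variance, all 16 libraries in 1 fit and Benjamini-Hochberg adjustment over all tested genes at 0.05. Slopes were fitted on a score with group means in the model. The fits were tested on simulated data with known changes. Set sums, shares and medians have no test, and Spry4 has an exact permutation test (scipy 1.17.1). The divisor of each library came from FPKM steps. At the chosen divisors, 93.0 to 94.3% of values below 100 reads came within 0.1 of an integer. These divisors were used only to give reads, not for a count test.

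GENCODE transcripts and RefSeq tables of GRCm38 supplied positions for 100 of 106 members, 13 of them through a synonym; no genome sequence was used here. Windows of 50 bases were compared between annotated transcripts.

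Described individually are all mitochondrial members, per comparison the called nuclear members or else the 5 with the smallest p, the highest and lowest subunit per complex, isoform groups, and the 5 largest and 5 most negative contractile slopes. Many called slopes are given as counts. Values of 1 further member are not reported here. Atp5pb was named for its values. Members and lists were chosen with earlier results of these data known. Alternatives were other pseudocounts, filters, scalings, terms, library subsets and each library left out. Leaving out the 2 libraries deposited with more decimals, and every alternative for the spermatid slope, were chosen after seeing the data. Replicate numbers do not pair libraries by the labels.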

Additional observations from a re-analysis of the deposited data

Results flagged for a closer look

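In groups of 4 libraries, a single library stood apart from the other 3 by more than Dixon's 95% limit in 15 of 164 groups examined. Chance alone gives about 1 in 20 for independent, normally distributed values. These groups share the same 16 libraries, so the count is not read against that rate. KO vehicle replicate 3 was the high library in 5 of the 15: mt-Atp6 at 3.03 FPKM, mt-Co3 at 5.34 FPKM, Cox6b2 at 27.6 FPKM, Cox7b2 at 54.5 FPKM and Cox8c at 41.9 FPKM. The other KO vehicle libraries had at most 0.535, 0.987, 5.81, 29.6 and 12.996 FPKM of these genes in the same order. KO PD0325901 replicate 4 was high for Cox7b at 51.7 FPKM, Cox8c at 10.6 FPKM and Ndufa4 at 47.2 FPKM. KO vehicle replicate 4 was high for Cox8a at 280.6 FPKM and Sdhd at 51.4 FPKM. WT vehicle replicate 3 was high for Cox7a1 at 6.04 FPKM and Cox7a2l at 43.7 FPKM, and WT vehicle replicate 2 for mt-Nd2 at 2042 FPKM. KO vehicle replicate 2 was low for Ndufab1 at 2.44 FPKM and high for Ndufs6b at 1.86 FPKM, where the other 3 had at most 0.400 FPKM.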

How the results depend on the processing

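Of 3285 alternative values, 2975 kept their direction and call or stayed within the spread between libraries (counts within 1.5 times). For group comparisons that spread was 0.46 for the mitochondrial and 0.21 for the nuclear median. A median smaller than that could change sign and still count as kept. Counts of 0 that stayed 0 were counted as kept too. Another 248 kept their sign but lost a call, on the contractile slope or for Spry4 with 1 library of the vehicle comparison left out. Of the rest, 49 moved further, and 13 slopes of called members changed sign, of which 0 were called in the other direction. In the 7 group comparisons no member was called under any alternative run; 1 other gene was called in KO against WT over both treatments with the contractile score as a term. Within the higher library numbers the mitochondrial median was -0.89 for KO against WT with PD0325901, -0.72 for PD0325901 against vehicle in KO and -0.89 for the interaction, which was 0.20 within the lower numbers; the nuclear median of the interaction was -0.079 with the contractile score as a term. The causes of these shifts were not tested.

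For the contractile slope, scaling without mitochondrial genes called 3 mitochondrial members, all downward, and 31 nuclear members upward, with medians of -0.19 and 0.058. Within the lower library numbers 207 genes were called, 1 of them a nuclear member (medians 0.22 mitochondrial, 0.11 nuclear), and within the higher ones 3559 were called, with 27 nuclear members upward and 1 mitochondrial member (mitochondrial median -0.35); each subset holds 8 libraries. The nuclear median was 0.11 with the number set as a term. With 1 library left out the mitochondrial median ran between -0.12 and 0.046 (the value without KO vehicle replicate 3), and 57 of the 70 called members passed without each single library. Of the 3 that fell, 1 was left without KO vehicle replicate 3, without WT PD0325901 replicate 1, 2 or 4, and without the 2 libraries deposited with more decimals. Under median-of-ratios scaling 5 nuclear members were called downward. Slopes that changed sign when scaled without mitochondrial genes were those of Ndufa9 (-0.0456), Cox6b1 (-0.0375), Ndufa7 (-0.0308), Ndufs8 (-0.0250), Uqcrb (-0.0053), Atp5mk (-0.0044), Ndufv1 (-0.0041) and Cox4i1 (-0.0011). Within the lower library numbers these were Atp5po (-0.0351), Cox8a (-0.0298), Ndufaf8 (-0.0248) and Ndufa11 (-0.0085), and within the higher ones Ndufaf5 (0.0085). With all calls counted, 50.2% were upward under that scaling and 27.1% when scaled without mitochondrial genes, against 59.6% for the deposited values.

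The spermatid slope called 704 genes without a filter on low values, 25 within the lower and 98 within the higher numbers, and between 65 (without KO vehicle replicate 3) and 208 with 1 library left out. Replicate numbers were checked for pairing: correlations of same-numbered libraries ran between -0.53 and 0.73, not all above 0.1, so they are not treated as pairs, although replicates 1 and 2, like 3 and 4, share a set of library numbers. With the replicate block 50 nuclear members were called upward and 4 downward on the contractile slope (median 0.12), and 111 genes on the spermatid slope. Among measured genes only, the motif shares were 5.51% (NRF1), 17.6% (ETS) and 4.66% (YY1). The balance of the sets kept its side with mean logs and without assembly factors. With each library left out in turn, the Spry4 differences kept their sign, and 4 against 3 libraries cannot reach an exact p under 0.05.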
